A study of Mus musculus with 24 samples.

Results

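The genes described here fold, check and clear proteins in the endoplasmic reticulum of cultured mouse muscle. They were 36 of the 56941 genes in the deposited tables, picked by name: 17 chaperones and folding helpers, 7 oxidoreductases, 4 stress sensors and transcription factors, and 8 genes of degradation. They were chosen as a group because chaperones were known to be higher in these libraries at 1 and 4 Hz, so the differences at 1 and 4 Hz against control are given below as a description. Calls in those contrasts come from the fit across all genes, and they are counted without being read as support for a rise of the group. The tissues were sheets of muscle fibers grown from C2C12, an established mouse myoblast line, that carried a channelrhodopsin-2 and tdTomato transgene (ChR2::tdTomato), and all 24 tissues, controls included, carried it. Tissues differentiated in horse serum with an insulin-like growth factor and were lit daily with 30 min of blue light pulses. The pulse rate was 1, 4, or 10 Hz, control tissues had none, and each condition had 6 tissues and 6 RNA libraries. Tissues also twitched spontaneously, so a control tissue was unstimulated but not at rest, and no light-exposed tissue without the opsin was among these 24. The tissues came from 1 line, so p-values measure only the spread between these samples, which may be technical.

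Muscle genes were abundant in every library. Acta1, the skeletal actin, measured 2391 to 7479 CPM (counts scaled to a common library total) and Ttn, encoding titin, measured 835 to 1457 CPM. Of the markers of other cells, Ptprc and Adgre1 (macrophages), Lum and Thy1 (fibroblasts), and Kdr and Cdh5 (endothelium) never exceeded 0.354 CPM. Cd68 and Csf1r from the same macrophage list reached 112.5 and 2.66 CPM, Dcn and Pdgfra from the fibroblast list 59.2 and 19.7 CPM, and Pecam1 from the endothelial list 1.69 CPM. Estimated counts totaled 4.09 to 15.2 M per library, and controls held the fewest on average, at 5.67 ± 1.33 M (SD, n = 6) against 9.12 ± 1.67 M at 4 Hz. CPM is used below to follow 1 gene across libraries, and TPM (the same per length of transcript) to compare levels between genes. In bulk RNA, fewer cells of a type and less RNA per cell cannot be told apart.

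Proteins bound for the membrane, the cell surface, or the medium enter the endoplasmic reticulum as they are made. Chaperones of the Hsp70 and Hsp90 families and the lectins calreticulin and calnexin hold them until folded, protein disulfide isomerases join their cysteines, and proteins that fail are passed back to the cytosol and degraded. Atf6, Ern1 (IRE1), and Eif2ak3 (PERK) are the membrane sensors of the unfolded protein response, and Xbp1 encodes the transcription factor that Ern1 activates by splicing. In muscle the same network is specialized as the sarcoplasmic reticulum, which stores the calcium that drives contraction. The forms of Xbp1 that splicing makes cannot be separated in counts per gene.

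The letters by which promoters of this group are often recognized are shown here as a description. They were not read when the members were picked, but the members were picked by name as genes of this route. The share of members with a match is therefore not independent of that choice. RefSeq promoters on build GRCm38.p6, from 250 bases before to 50 bases after each gene start, were matched for 30 of the 36 members. Atf6, Hspa13, Sil1, Manf, Derl1, and Hyou1 had no entry. The endoplasmic reticulum stress element (ERSE) was searched on both strands as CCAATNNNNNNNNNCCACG, where N is any base. It occurred in promoters of 10 of the 30 matched members, or 33.3%, and in 37 of all 27025 genes with a promoter in the table, or 0.137% (39 of all 32851 promoters, or 0.119%). The related ERSE-II, ATTGGNCCACG, occurred in 2 of the 30 members and in 12 of all genes, or 0.0444%. ERSE and ERSE-II are built from the same pair of 5-letter blocks, CCAAT and CCACG, with different spacing and orientation. TGACGTGG, the core that Xbp1 and Atf6 are known to bind, and TGATGNAAT, a form of the site of Atf4 with its partners, occurred in none of the 30 members and in 0.714% and 1.08% of all genes. The reverse complement of TGACGTGG starts with CCACG and can therefore overlap an ERSE. A match is a string of letters in a short window and no proof of a binding site.

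The stretches printed next end at or before base -1 relative to the gene start, run 5′ to 3′ on the gene's strand, and carry the fixed letters of each match in capitals. Hspa5 and Calr were chosen as the most abundant chaperones, Hsp90b1 because it holds 2 elements, Pdia6 and Herpud1 as the members of their classes that were highest above control, Dnajc3 and Syvn1 as genes that hold an element but were less than 0.5 above control on the log2 scale at both 1 and 4 Hz, and Sdf2l1 as a gene that was far above control without one. They lie on GRCm38.p6 at chr2:34771890-34772089 (+ strand) for Hspa5, chr8:84846932-84847131 (- strand) for Calr, chr10:86705495-86705694 (- strand) for Hsp90b1, chr12:17266439-17266588 (+ strand) for Pdia6, chr8:94386279-94386428 (+ strand) for Herpud1, chr14:118937782-118937931 (+ strand) for Dnajc3, chr19:6046476-6046575 (+ strand) for Syvn1, and chr16:17132384-17132533 (- strand) for Sdf2l1.
Hspa5: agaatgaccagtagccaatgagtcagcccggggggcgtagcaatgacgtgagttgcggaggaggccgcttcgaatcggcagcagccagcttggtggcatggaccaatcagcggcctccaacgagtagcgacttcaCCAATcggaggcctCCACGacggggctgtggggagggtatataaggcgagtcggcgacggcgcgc
Calr: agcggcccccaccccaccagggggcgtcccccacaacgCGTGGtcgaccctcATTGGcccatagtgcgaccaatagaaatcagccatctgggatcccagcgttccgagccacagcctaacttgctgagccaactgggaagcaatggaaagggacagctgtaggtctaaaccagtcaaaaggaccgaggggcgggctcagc
Hsp90b1: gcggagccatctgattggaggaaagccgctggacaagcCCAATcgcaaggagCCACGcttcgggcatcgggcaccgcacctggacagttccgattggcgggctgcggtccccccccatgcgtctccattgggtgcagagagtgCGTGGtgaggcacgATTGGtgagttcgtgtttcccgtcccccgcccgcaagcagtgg
Pdia6: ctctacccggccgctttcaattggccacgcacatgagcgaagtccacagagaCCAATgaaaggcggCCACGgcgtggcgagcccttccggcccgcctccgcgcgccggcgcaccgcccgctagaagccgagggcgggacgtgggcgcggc
Herpud1: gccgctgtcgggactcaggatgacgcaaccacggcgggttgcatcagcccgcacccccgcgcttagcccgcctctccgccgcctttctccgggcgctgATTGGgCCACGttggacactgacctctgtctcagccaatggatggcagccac
Dnajc3: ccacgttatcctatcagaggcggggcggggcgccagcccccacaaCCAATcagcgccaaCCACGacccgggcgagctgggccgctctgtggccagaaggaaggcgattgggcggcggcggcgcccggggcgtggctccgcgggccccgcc
Syvn1: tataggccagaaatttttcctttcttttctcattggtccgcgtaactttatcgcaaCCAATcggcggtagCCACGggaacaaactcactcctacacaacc
Sdf2l1: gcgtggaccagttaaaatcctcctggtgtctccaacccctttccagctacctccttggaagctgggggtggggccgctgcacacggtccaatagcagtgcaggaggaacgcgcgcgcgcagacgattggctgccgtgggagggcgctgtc

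Hspa5 carried its ERSE from base -65 to -47, Pdia6 from -98 to -80, Dnajc3 from -105 to -87, and Syvn1 from -44 to -26. Calr carried it in reverse from -162 to -144, and Hsp90b1 carried a forward copy from -212 to -194 and a reverse copy from -107 to -89. Herpud1 held the ERSE-II from -52 to -42. The remaining matches were in Canx, Creld2, Ero1b, and Derl3 for the ERSE, and in Dnajb11 for the ERSE-II, at a place after the gene start.

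Among all 36 members, 35 had enough counts to be tested and 1, Derl3, did not. Derl3, a derlin of degradation, had 1 count in all 24 libraries together and none in 23 of them, and a count of 0 allows up to 3 counts, or 0.197 to 0.734 CPM depending on the library. A gene was called when its Benjamini-Hochberg adjusted p over all 13318 genes tested was below 0.05 and its log2 fold change was beyond 0.5 in either direction. At 1 Hz, 16 of the 35 members were called higher than control and 0 lower, where 9.34% of all genes tested were called higher and 8.99% lower. At 4 Hz, 14 members were called higher and 0 lower, against 10.5% and 9.61% of all genes. The 6 libraries did not overlap the 6 control libraries for 16 members that were higher at 1 Hz and 15 that were higher at 4 Hz, where 7.22% and 8.68% of all genes were higher without overlap. By adjusted p alone, 25 members were higher and 2 lower at 1 Hz (18.1% and 17.3% of all genes), and 22 were higher and 1 lower at 4 Hz (19.2% and 20.2%). The median log2 fold change of the members was 0.46 at 1 Hz and 0.32 at 4 Hz, against medians of -0.01 and -0.01 over all genes tested. Because the members were chosen on these contrasts, nothing is read from these counts beyond their make-up by class. At 10 Hz edgeR called 0 members higher and 0 lower. The choice named a rise at 1 and 4 Hz only, but it was made with results of these data known. The contrast at 10 Hz also shares the control libraries, so it is not independent of the choice.

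Chaperones supplied 7 of the genes higher at 1 Hz and 8 of those at 4 Hz. Oxidoreductases supplied 5 at each frequency, out of 7 members (4 and 3 in limma on log2(TPM + 1)). Of the 4 sensors and factors, 2 were higher at 1 Hz and 0 at 4 Hz, and of the 7 degradation genes tested, 2 were higher at 1 Hz and 1 at 4 Hz. The median log2 fold change fell in the order oxidoreductases 0.53, sensors 0.49, chaperones 0.41, and degradation 0.21 at 1 Hz, and oxidoreductases 0.60, chaperones 0.40, sensors 0.13, and degradation 0.10 at 4 Hz.

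**Figure D1:**
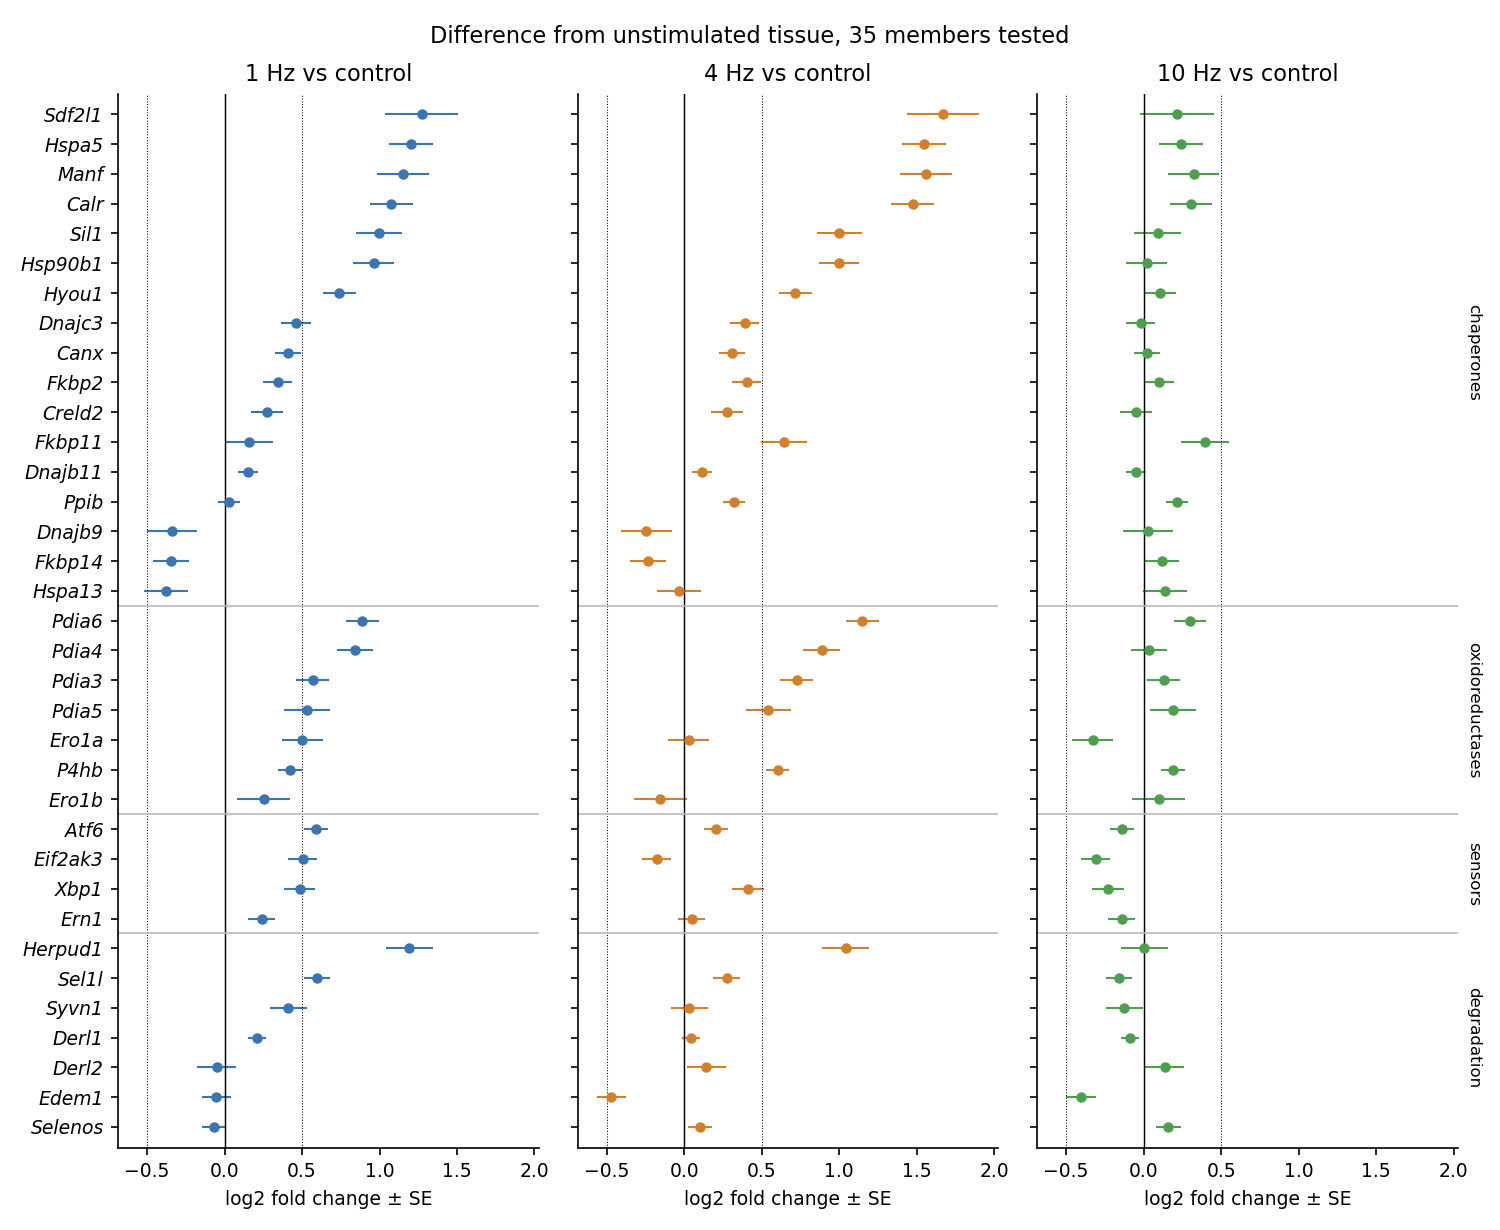
Log2 fold change against control (x axis) with its standard error for the 35 members tested (y axis), in 1 panel per frequency and grouped by class. Points for the chaperones Sdf2l1, Hspa5, Manf, and Calr and the degradation gene Herpud1 lie beyond 1 at 1 and 4 Hz, while all 35 points lie between -0.40 and 0.40 at 10 Hz.

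Summed over its 17 genes, the chaperone class took 4203 ± 261 TPM in control, 7829 ± 1596 at 1 Hz, 8800 ± 1219 at 4 Hz, and 4529 ± 342 at 10 Hz (SD, n = 6 each). Every 1 Hz and 4 Hz library, from 5188 TPM up, lay above the highest control library at 4625 TPM. Most of that mass came from Calr, at a mean of 2149 TPM over all libraries, and Hspa5, at 2064 TPM. Oxidoreductases summed to 1670 ± 169 TPM in control, 2431 ± 291 at 1 Hz, 2303 ± 176 at 4 Hz, and 1662 ± 125 at 10 Hz. Degradation genes summed to 559 ± 60.0, 808 ± 91.9, 694 ± 53.3, and 530.2 ± 49.3 TPM in that order, and the sensors to 142 ± 24.1, 202 ± 27.4, 166 ± 8.40, and 114 ± 7.81 TPM. In TPM the degradation genes, the sensors, and the oxidoreductases had their highest mean at 1 Hz, and the chaperones at 4 Hz. In CPM the oxidoreductases summed to 3892 ± 460 at 1 Hz and 3929 ± 193 at 4 Hz. Together the 36 genes took 0.934% of the counts in control, 1.52% at 1 Hz, 1.68% at 4 Hz, and 0.986% at 10 Hz.

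**Figure D2:**
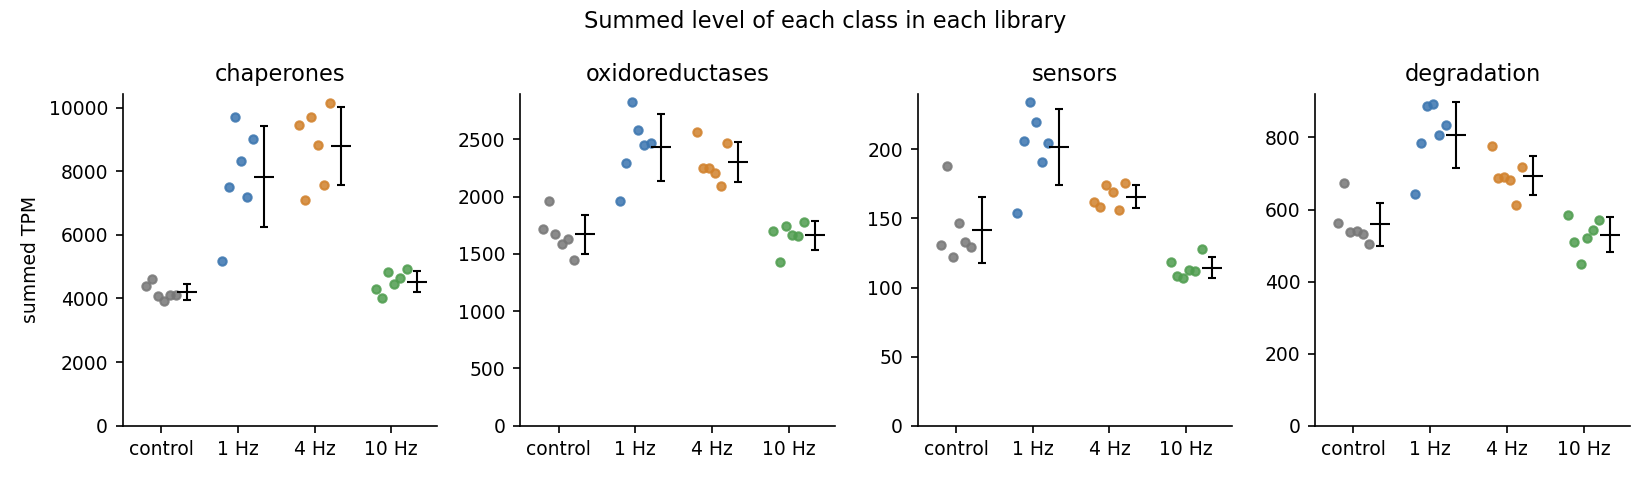
Summed TPM of each class (y axis, from 0) in each of the 24 libraries (points) by condition (x axis), with the mean and SD of 6 libraries at the right of each group. The chaperone sums at 1 Hz (5188 to 9717 TPM) and 4 Hz (7104 to 10132 TPM) lie above all control sums (3912 to 4625 TPM), and the 10 Hz sums (4013 to 4926 TPM) overlap control.

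Hspa5 encodes BiP, the Hsp70 chaperone of the compartment, and lies on GRCm39 at chr2:34661982-34668880 (+ strand). Hspa5 measured 1374 to 1829 CPM (median 1636) in control, 2249 to 4918 (median 3874) at 1 Hz, 3561 to 5676 (median 4951) at 4 Hz, and 1558 to 2261 (median 1955) at 10 Hz. Every 1 Hz and 4 Hz library was above every control library, with log2 fold changes of 1.20 ± 0.14 (SE, as for every log2 fold change here) and 1.55 ± 0.14, or 2.3-fold and 2.93-fold. At 10 Hz the libraries overlapped control and the log2 fold change was 0.24 ± 0.14, with an adjusted p of 0.35 in edgeR's quasi-likelihood test.

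Hsp90b1 (GRP94), the Hsp90 of the compartment, lies at chr10:86526073-86541446 (- strand) on GRCm39. Hsp90b1 measured 577 to 779 CPM (median 722) in control, 962 to 1856 (median 1400) at 1 Hz, 1109 to 1736 (median 1384) at 4 Hz, and 580.2 to 883 (median 712) at 10 Hz. It was 1.95-fold and 2.0-fold higher than control at 1 and 4 Hz without overlap, and level with control at 10 Hz (log2 fold change 0.02 ± 0.13). Hyou1, a large Hsp70 relative that exchanges the nucleotide of BiP, went the same way at a lower level. Hyou1 measured 131 to 148 CPM (median 135) in control, 165 to 274 (median 232) at 1 Hz, 171 to 287 (median 219) at 4 Hz, and 137 to 159 (median 145) at 10 Hz. Its log2 fold changes were 0.74 ± 0.11 at 1 Hz and 0.72 ± 0.11 at 4 Hz. Sil1, the other nucleotide exchange factor of BiP, ranged over 25.7 to 35.7 CPM in control, 38.9 to 79.9 at 1 Hz, 46.6 to 82.7 at 4 Hz, and 29.7 to 37.4 at 10 Hz. It was 0.99 ± 0.15 above control on the log2 scale at 1 Hz and 1.00 ± 0.15 at 4 Hz, with no overlap in CPM at either frequency. In TPM both overlapped control, where Sil1 reached 50.3 in replicate 4 against lowest values of 40.3 at 1 Hz and 42.7 at 4 Hz.

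Calr, the calcium-binding lectin calreticulin, lies at chr8:85567946-85573667 (- strand) on GRCm39. Calr measured 1311 to 1551 CPM (median 1411) in control, 1761 to 3775 (median 3003) at 1 Hz, 2863 to 4860 (median 4091) at 4 Hz, and 1648 to 1833 (median 1757) at 10 Hz. It was 2.11-fold and 2.78-fold above control. At 10 Hz all 6 libraries still lay above the 6 controls, but by only 0.30 ± 0.14 on the log2 scale, and the adjusted p was 0.2 (edgeR). Canx, the membrane-bound lectin calnexin, moved less. Canx measured 453 to 588 CPM (median 512) in control, 613 to 795 (median 659) at 1 Hz, 554 to 704 (median 644) at 4 Hz, and 422 to 584 (median 541) at 10 Hz. Its log2 fold change was 0.41 ± 0.08 at 1 Hz, where the libraries did not overlap control, and 0.31 ± 0.08 at 4 Hz, both below the threshold of 0.5.

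Manf, a secreted factor that binds BiP, was among the members farthest above control. Manf measured 69.2 to 88.9 CPM (median 84.1) in control, 88.1 to 240.1 (median 189) at 1 Hz, 166 to 272 (median 266) at 4 Hz, and 81.6 to 116 (median 103) at 10 Hz. The lowest 1 Hz library overlapped control, whereas all 4 Hz libraries were above it, and the log2 fold changes were 1.15 ± 0.17 and 1.56 ± 0.17. Sdf2l1, a partner of the BiP cochaperones that lies at chr16:16948002-16950252 (- strand) on GRCm39, had the largest log2 fold change of the 35 at both frequencies, at 1.27 ± 0.24 and 1.67 ± 0.23. It ranged over 18.0 to 26.3 CPM in control, 22.2 to 84.1 at 1 Hz, 39.6 to 98.1 at 4 Hz, and 19.2 to 28.5 at 10 Hz, so that its 1 Hz libraries reached down into the control range. Creld2, a secreted partner of the isomerases, moved little. Creld2 measured 48.1 to 54.1 CPM (median 51.7) in control, 51.3 to 74.3 (median 60.4) at 1 Hz, 50.4 to 72.5 (median 60.8) at 4 Hz, and 36.6 to 55.0 (median 51.1) at 10 Hz. Its log2 fold change was 0.27 ± 0.10 at 1 Hz and 0.28 ± 0.10 at 4 Hz, and the conditions overlapped.

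The J-domain cochaperones, which hand clients to BiP, differed from control by less than 0.5 on the log2 scale at 1 and 4 Hz. Dnajc3 measured 58.1 to 79.9 CPM (median 66.8) in control, 79.6 to 118 (median 90.3) at 1 Hz, 80.4 to 101 (median 86.5) at 4 Hz, and 59.1 to 75.7 (median 67.5) at 10 Hz. Dnajc3 (p58IPK) was above control by 0.46 ± 0.09 at 1 Hz and 0.39 ± 0.09 at 4 Hz, where its libraries lay above control without overlap, both below the fold threshold. Dnajb11 measured 105 to 126 CPM (median 124) in control, 124 to 145 (median 132) at 1 Hz, 121 to 137 (median 130.3) at 4 Hz, and 103 to 134 (median 114) at 10 Hz. Dnajb11 (ERdj3) differed from control by 0.15 ± 0.07 and 0.12 ± 0.07 on the log2 scale, with overlapping libraries.

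Dnajb9 measured 103 to 193 CPM (median 158) in control, 98.0 to 152 (median 122) at 1 Hz, 79.5 to 173 (median 134) at 4 Hz, and 119 to 192 (median 152) at 10 Hz. Dnajb9 (ERdj4), a cochaperone that also acts on Ern1, was not higher in either case, with log2 fold changes of -0.34 ± 0.16 and -0.24 ± 0.16. Hspa13 measured 64.3 to 105 CPM (median 92.3) in control, 54.6 to 83.2 (median 65.8) at 1 Hz, 57.2 to 103 (median 88.7) at 4 Hz, and 68.7 to 109 (median 105) at 10 Hz. Hspa13 (Stch), an Hsp70 relative of the microsome, was lower at 1 Hz by adjusted p alone, with a log2 fold change of -0.38 ± 0.14, and stood at -0.04 ± 0.14 at 4 Hz.

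The prolyl isomerases of the group turn proline bonds during folding, several of them in collagen. Ppib measured 143 to 155 CPM (median 150.2) in control, 134 to 166 (median 153) at 1 Hz, 161 to 201 (median 192) at 4 Hz, and 151 to 193 (median 173) at 10 Hz. Ppib (cyclophilin B) was level with control at 1 Hz (0.03 ± 0.07) and above it without overlap at 4 Hz (0.32 ± 0.07). The 3 FK506-binding isomerases were of low level, from 6.25 CPM up. Fkbp2 differed by 0.34 ± 0.10 and 0.40 ± 0.10 at 1 and 4 Hz, Fkbp11 by 0.16 ± 0.16 and 0.64 ± 0.15, and Fkbp14 by -0.34 ± 0.12 and -0.23 ± 0.11. Only Fkbp11 at 4 Hz was called, and Fkbp14 was 1 of the 2 members that were lower at 1 Hz by adjusted p alone.

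**Figure D3:**
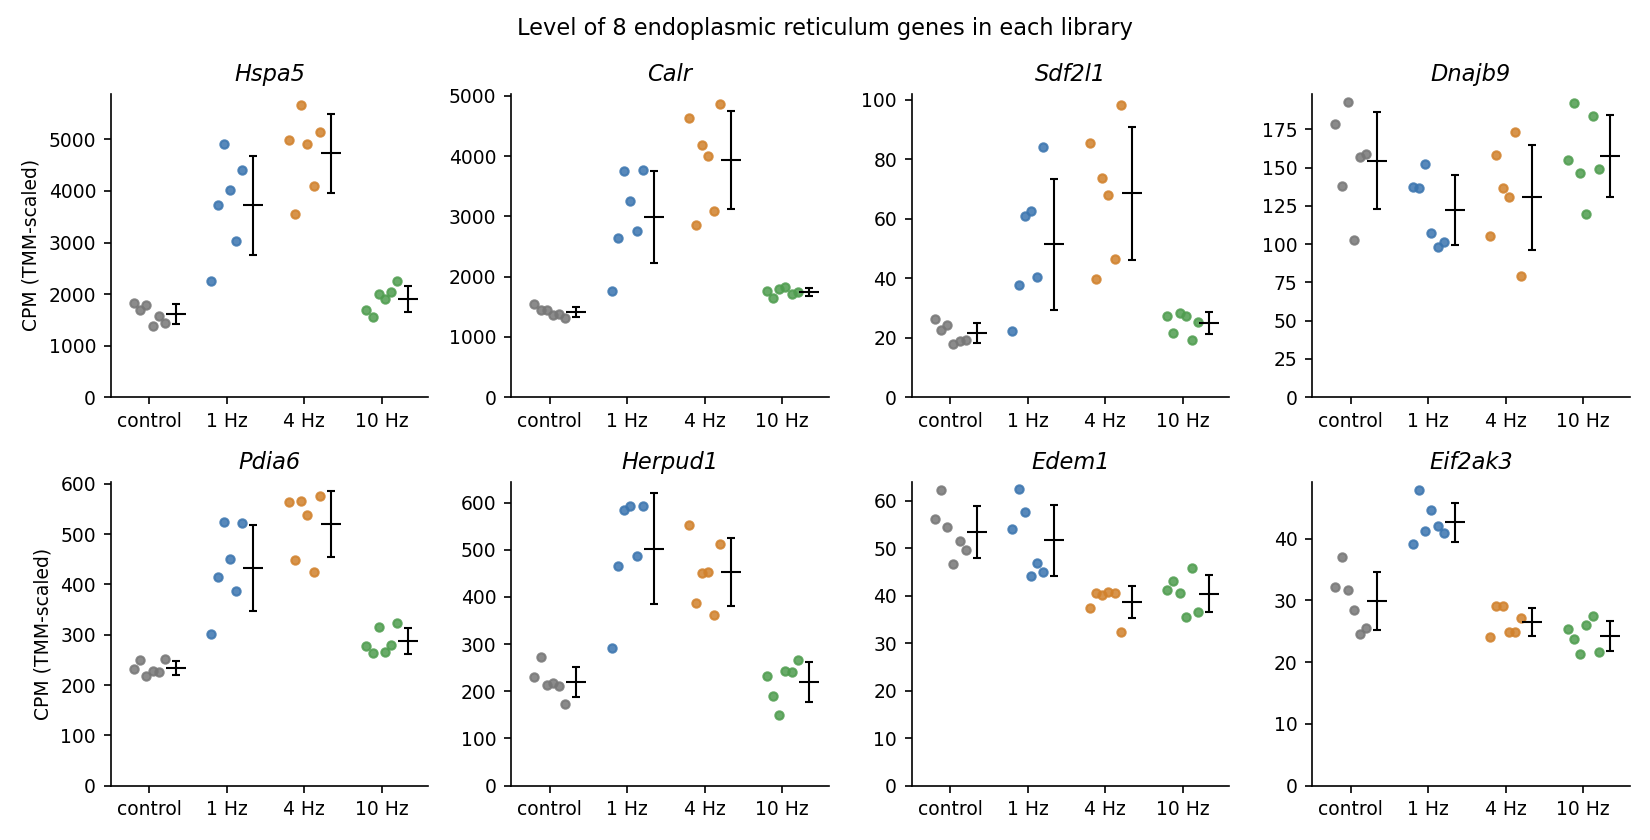
TMM-scaled CPM (y axes, from 0) of 8 members in each of the 24 libraries (points) by condition (x axis), with the mean and SD of 6 libraries at the right of each group. Hspa5 at 4 Hz (3561 to 5676 CPM) lies above control (1374 to 1829 CPM), Dnajb9 overlaps in all 4 conditions, and Eif2ak3 at 1 Hz (39.1 to 47.8 CPM) stands above the other 3 conditions.

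Among the oxidoreductases, Pdia6, an isomerase that also acts on the sensors, was farthest above control. It lies at chr12:17316533-17335913 (+ strand) on GRCm39. Pdia6 measured 218 to 251 CPM (median 229.7) in control, 302 to 523 (median 432) at 1 Hz, 425 to 576 (median 551) at 4 Hz, and 263 to 324 (median 279) at 10 Hz. Its log2 fold changes were 0.89 ± 0.11 and 1.15 ± 0.11, without overlap. At 10 Hz it was 0.30 ± 0.11 above control, again without overlap, at an adjusted p of 0.096 (edgeR).

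Pdia4 measured 72.2 to 86.2 CPM (median 76.4) in control, 91.0 to 172 (median 138) at 1 Hz, 116 to 160.4 (median 152) at 4 Hz, and 69.2 to 89.5 (median 78.5) at 10 Hz. Pdia4 (ERp72) was 1.79-fold and 1.85-fold above control without overlap. Pdia3 measured 341 to 446 CPM (median 423) in control, 478 to 799 (median 594) at 1 Hz, 602 to 807 (median 679) at 4 Hz, and 371 to 497 (median 465) at 10 Hz. Pdia3 (ERp57), the isomerase that works with the lectins, was above control by 0.57 ± 0.10 and 0.73 ± 0.10 on the log2 scale. P4hb measured 975 to 1258 CPM (median 1145) in control, 1324 to 1672 (median 1556) at 1 Hz, 1548 to 1973 (median 1662) at 4 Hz, and 1146 to 1378 (median 1324) at 10 Hz. P4hb, the founding disulfide isomerase and a subunit of collagen prolyl hydroxylase, was the most abundant of the class at 844 TPM, and passed the threshold of 0.5 at 4 Hz (0.60 ± 0.08) and not at 1 Hz (0.42 ± 0.08).

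The oxidases that recharge these isomerases were above control in the mean at 1 Hz. Ero1a measured 569 to 959.6 CPM (median 898) in control, 913 to 1487 (median 1128) at 1 Hz, 722 to 942 (median 847) at 4 Hz, and 486 to 831 (median 629) at 10 Hz. Ero1a was above control at 1 Hz by 0.50 ± 0.13, with overlap, and stood at 0.03 ± 0.13 at 4 Hz. Its paralog Ero1b stayed between 5.73 and 14.1 CPM, with log2 fold changes of 0.25 ± 0.17 and -0.15 ± 0.17. Pdia5, also of low level (6.24 to 15.8 CPM), was above control by 0.53 ± 0.15 and 0.54 ± 0.15. Ero1a and Eif2ak3, both at 0.50, were the members just inside the fold threshold at 1 Hz, and Xbp1 (0.48) and Dnajc3 (0.46) were those just outside it.

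All 4 sensors and factors were above control at 1 Hz. Atf6 measured 119 to 137 CPM (median 127) in control, 169 to 228 (median 188) at 1 Hz, 131 to 156 (median 150.4) at 4 Hz, and 98.8 to 130.0 (median 118) at 10 Hz. Atf6 was higher at 1 Hz without overlap (0.59 ± 0.08) and 0.20 ± 0.08 above control at 4 Hz. Xbp1 measured 90.6 to 130.0 CPM (median 103) in control, 105 to 180.3 (median 153) at 1 Hz, 126 to 161 (median 139) at 4 Hz, and 80.0 to 97.6 (median 88.8) at 10 Hz. Xbp1 was above control by 0.48 ± 0.10 and 0.41 ± 0.10, and at 10 Hz it stood at -0.23 ± 0.10 with an adjusted p of 0.2 (edgeR).

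Eif2ak3 measured 24.6 to 37.1 CPM (median 30.1) in control, 39.1 to 47.8 (median 41.6) at 1 Hz, 24.1 to 29.1 (median 26.0) at 4 Hz, and 21.4 to 27.4 (median 24.5) at 10 Hz. Eif2ak3, which lies at chr6:70821461-70882235 (+ strand) on GRCm39, was above control without overlap at 1 Hz (0.50 ± 0.09) and below it in the mean at 4 Hz (-0.18 ± 0.09). Ern1 ranged over 27.6 to 35.3 CPM in control, 32.0 to 41.5 at 1 Hz, 28.8 to 39.4 at 4 Hz, and 26.4 to 31.5 at 10 Hz, and its log2 fold changes were 0.24 ± 0.09 and 0.05 ± 0.09. On the TPM scale Xbp1, at 108 TPM over all libraries, was the most abundant of the 4, followed by Atf6 at 28.0, Eif2ak3 at 10.4, and Ern1 at 9.54 TPM.

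Of the degradation genes, Herpud1, a membrane scaffold of the ubiquitin ligase complex, stood apart. It lies at chr8:95113022-95123141 (+ strand) on GRCm39. Herpud1 measured 172 to 272 CPM (median 216) in control, 291 to 593 (median 536) at 1 Hz, 361 to 552 (median 452) at 4 Hz, and 150.2 to 266 (median 237) at 10 Hz. It was 2.29-fold above control at 1 Hz and 2.06-fold at 4 Hz without overlap, and level with control at 10 Hz (0.00 ± 0.15).

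Sel1l measured 106 to 135 CPM (median 118) in control, 156 to 206 (median 174) at 1 Hz, 125 to 157 (median 142) at 4 Hz, and 89.3 to 122 (median 104) at 10 Hz. Sel1l, the adaptor of the ligase, was above control without overlap at 1 Hz (0.60 ± 0.09) and by 0.27 ± 0.09 at 4 Hz. Syvn1 measured 61.3 to 88.1 CPM (median 75.4) in control, 80.2 to 120.0 (median 98.2) at 1 Hz, 60.2 to 100.1 (median 74.1) at 4 Hz, and 53.7 to 81.5 (median 69.7) at 10 Hz. Syvn1 (HRD1), the ligase itself, was above control by 0.41 ± 0.12 at 1 Hz and by 0.03 ± 0.12 at 4 Hz. Derl1 measured 214 to 255 CPM (median 232) in control, 261 to 279 (median 266) at 1 Hz, 226 to 253 (median 236) at 4 Hz, and 201 to 242 (median 214) at 10 Hz. Derl1, a derlin of the exit channel, was above control without overlap at 1 Hz but by 0.21 ± 0.06 only, and stood at 0.04 ± 0.06 at 4 Hz.

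Derl2 measured 42.1 to 65.9 CPM (median 55.8) in control, 43.3 to 66.5 (median 50.9) at 1 Hz, 44.0 to 75.1 (median 61.9) at 4 Hz, and 45.7 to 66.3 (median 63.2) at 10 Hz. Derl2 overlapped in all conditions, with log2 fold changes of -0.05 ± 0.13 and 0.14 ± 0.13. Selenos measured 70.8 to 91.6 CPM (median 79.2) in control, 71.0 to 81.6 (median 77.3) at 1 Hz, 76.1 to 96.0 (median 88.1) at 4 Hz, and 75.9 to 102 (median 89.7) at 10 Hz. Selenos, a selenoprotein that links the exit machinery to the cytosolic ATPase, also overlapped throughout (-0.07 ± 0.08 and 0.10 ± 0.08). Edem1, a mannosidase-like lectin that marks glycoproteins for degradation, ranged over 46.6 to 62.2 CPM in control, 44.2 to 62.4 at 1 Hz, 32.3 to 40.8 at 4 Hz, and 35.5 to 45.9 at 10 Hz, and it was the single member lower by adjusted p alone at 4 Hz (-0.47 ± 0.09), where its libraries lay below control without overlap.

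A pair of values, read across libraries, also differed between control and the 1 and 4 Hz libraries. The first was a set of 22 small non-coding RNAs, mostly without poly(A) tails, whose share can differ between poly(A)-selected and ribodepleted libraries. It was 98.2 to 169 CPM of the raw total in control, 15.5 to 70.0 at 1 Hz, 19.5 to 50.9 at 4 Hz, and 38.5 to 274 at 10 Hz, so control did not overlap 1 or 4 Hz. Of its 5 genes with enough counts, edgeR called 0 higher and 3 lower at 1 Hz, 0 and 2 at 4 Hz, and 0 and 0 at 10 Hz, DESeq2 called 0 and 2, 0 and 2, and 0 and 0, and at 10 Hz 0 met an unadjusted p below 0.05. The labels say that samples of low input were ribodepleted in place of poly(A) selection and do not say which. With the log2 of this share as a covariate, 0 members were called higher at 1 Hz, where 1 of all 13318 genes was, and 4 were called higher at 4 Hz (Hspa5, Calr, Manf, and Pdia6), where 1.01% of all genes were. Of the 27 members past the adjusted p at 1 Hz all 27 kept their sign, and of the 23 at 4 Hz 22 did. Because the share in control overlapped neither that at 1 Hz nor that at 4 Hz, frequency and library make-up cannot be told apart at either frequency by these data.

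**Figure D4:**
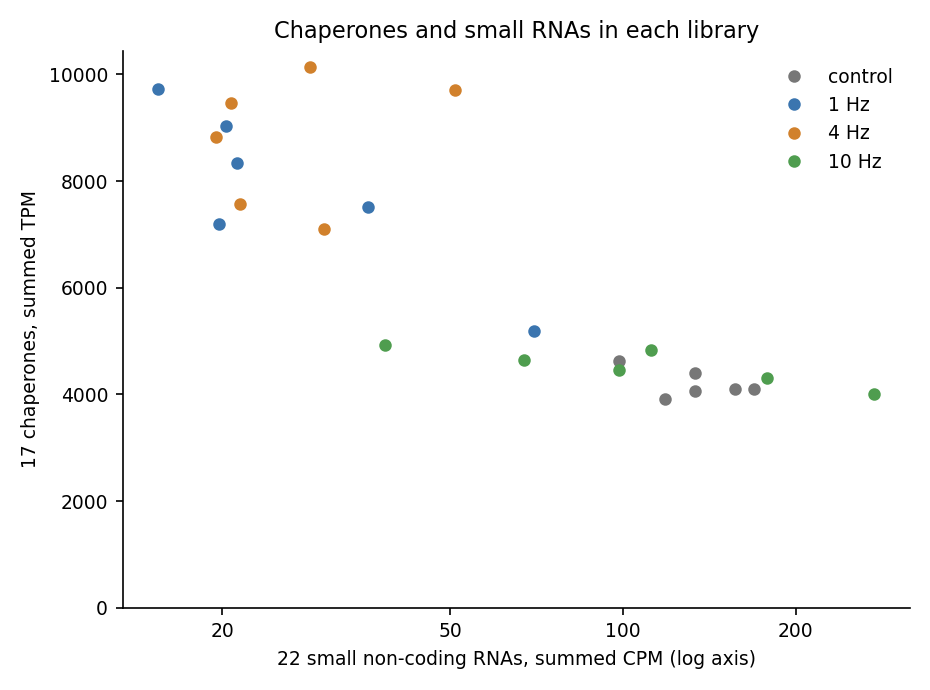
Summed TPM of the 17 chaperones (y axis, from 0) against the summed CPM of 22 small non-coding RNAs (x axis, logarithmic) in each of the 24 libraries, colored by condition. The 1 Hz and 4 Hz libraries lie at 15.5 to 70.0 CPM and from 5188 TPM up, and the control libraries at 98.2 to 169 CPM and at no more than 4625 TPM. The 10 Hz libraries lie at 38.5 to 274 CPM and at 4013 to 4926 TPM.

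The second was the summed level of 8 myotube markers, which was 6490 to 8207 CPM in control, 9258 to 12725 at 1 Hz, 9439 to 14516 at 4 Hz, and 6937 to 10213 at 10 Hz. Of these 8 genes, 4 rose at 1 Hz, 5 at 4 Hz, and 2 at 10 Hz, and 0 fell. Of all genes tested, 9.34% were called higher and 8.99% lower at 1 Hz, and 10.5% and 9.61% at 4 Hz. At 10 Hz the shares were 1.24% and 0.623%. Myh3, the embryonic myosin, rose by 1.23 ± 0.19 and 1.26 ± 0.19 on the log2 scale at 1 and 4 Hz (edgeR adjusted p = 4.0e-05 and 1.8e-05). The part of either value in the differences of the members was not tested beyond the covariate fit.

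At 10 Hz no member reached the threshold. edgeR called 0 of the 35 tested higher and 0 lower against control, where 1.24% and 0.623% of all genes were called. DESeq2 also called 0 and 0, as did limma on log2(TPM + 1). At an unadjusted p below 0.05, 5 members were higher and 4 lower, and 20.6% of all genes met that p in either direction. By adjusted p alone 0 were higher and 1 was lower, against 2.67% and 2.22% of all genes. The median log2 fold change of the members was 0.09, against -0.01 over all genes. The 10 Hz comparison shares its control libraries with those at 1 and 4 Hz, so the values of each are given side by side and no overlap between them is read. By class the medians were 0.10 for chaperones, 0.13 for oxidoreductases, -0.19 for sensors, and -0.09 for degradation. Of the 17 chaperones 14 were above control in the mean at 10 Hz, and of the 4 sensors 0 were. Transcript length also moved with this contrast. Over all genes tested with a length, the median was 0.07 in the shortest of 3 equal groups, -0.02 in the middle, and -0.06 in the longest. Of the 17 chaperones 9 were in the shortest group, and of the 4 sensors 3 were in the longest. The part of length in the class medians was not tested.

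Edem1 was the member past the adjusted p. It stood at -0.40 ± 0.09 on the log2 scale at 10 Hz (adjusted p = 0.012, edgeR), and its 10 Hz libraries, at 35.5 to 45.9 CPM, lay below all control libraries, at 46.6 to 62.2 CPM. On the TPM scale, which weighs its transcripts by length, the means were 16.8 at 10 Hz and 17.6 in control, and in limma on log2(TPM + 1) the difference was -0.08. It therefore passed the adjusted p on the counts and not on TPM.

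Next to it in order of size were Fkbp11 (0.40 ± 0.15, adjusted p = 0.13), Ero1a (-0.33 ± 0.13, adjusted p = 0.15), Manf (0.32 ± 0.17, adjusted p = 0.27), and Eif2ak3 (-0.31 ± 0.10, adjusted p = 0.056), none of them past the threshold in edgeR.

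The 10 Hz libraries were also set against the other frequencies. Because those contrasts use the libraries whose level chose the members, they too are a description. Against 1 Hz, 1 member was called higher at 10 Hz and 16 lower, where 9.45% and 8.49% of all genes were, and against 4 Hz 0 were higher and 12 lower (5.32% and 5.64% of all genes). By adjusted p alone the counts were 4 and 26 against 1 Hz (17.7% and 18.5% of all genes) and 1 and 19 against 4 Hz (10.9% and 11.9%). The member higher was Hspa13, by 0.52 ± 0.14 against 1 Hz. Hspa5 stood at -0.96 ± 0.14 against 1 Hz and -1.31 ± 0.14 against 4 Hz, and Herpud1 at -1.19 ± 0.15 and -1.04 ± 0.15.

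The difference between 4 Hz and 1 Hz was tested. The choice of members did not set these frequencies against each other, but it did use both sets of libraries, so the test is not independent of that choice. edgeR called 0 members higher at 4 Hz and 1 lower, where 1.59% and 1.4% of all genes were called, and at an unadjusted p below 0.05, 9 were higher and 9 lower, while 26.9% of all genes met that p in either direction. DESeq2 and limma on log2(TPM + 1) each called 0 and 1 as well. By adjusted p alone 2 were higher and 6 lower, against 5.71% and 6.56% of all genes. The member called was Eif2ak3, which encodes PERK. It fell from 39.1 to 47.8 CPM at 1 Hz to 24.1 to 29.1 CPM at 4 Hz without overlap, by -0.68 ± 0.09 on the log2 scale (edgeR adjusted p = 4.3e-05), and it stayed past the threshold in all 36 alternative fits, which gave -0.76 to -0.62.

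All but 1 of the other 5 that fell belong to the sensors or to degradation. Atf6 fell by 0.38 ± 0.08 (adjusted p = 0.0018) and Edem1 by 0.42 ± 0.09 (adjusted p = 0.0046), both without overlap, and Sel1l by 0.32 ± 0.09 (adjusted p = 0.014), Syvn1 by 0.38 ± 0.12 (adjusted p = 0.036), and the oxidase Ero1a by 0.47 ± 0.13 (adjusted p = 0.02) with overlap. The 2 that rose were isomerases, Fkbp11 by 0.49 ± 0.15 without overlap (adjusted p = 0.03) and Ppib by 0.29 ± 0.07 (adjusted p = 0.0079). Of the chaperones farthest above control at both frequencies, Calr stood at 0.40 ± 0.14 (adjusted p = 0.054), Manf at 0.41 ± 0.16 (adjusted p = 0.096), and Hspa5 at 0.35 ± 0.14 (adjusted p = 0.11) between 4 and 1 Hz, so that a higher level at 4 Hz was not established for any of them in edgeR's test. Hsp90b1, Hyou1, and Sil1 stood at 0.04 ± 0.13, -0.02 ± 0.10, and 0.01 ± 0.14. Derl1 was lower at 4 Hz without overlap, by 0.17 ± 0.06, at an adjusted p of 0.06 (edgeR).

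Transcript length moved with this contrast. Over the genes tested with a transcript length, the median log2 fold change between 4 and 1 Hz was 0.11 in the shortest of 3 equal groups (up to 2343 bases), -0.02 in the middle, and -0.10 in the longest (over 4288 bases). All 6 members that fell have transcripts of 3467 bases or more, and both that rose have transcripts of 1261 bases or fewer. With the trend over length removed from each library, 4 of the 8 stayed past the adjusted p (Eif2ak3, Atf6, Edem1, and Ero1a), and Sel1l, Syvn1, Ppib, and Fkbp11 did not. In limma on log2(TPM + 1), Ppib, Fkbp11, Sel1l, and Edem1 were no longer past it, Fkbp11 was not past it without the filter on low counts either, and Syvn1 was not when the 12 libraries of these frequencies were fitted alone. Ero1a was no longer past the adjusted p without 1 Hz replicate 3, Fkbp11 without any of 5 single libraries (1 Hz replicate 3 or 5, or 4 Hz replicate 3, 4, or 6), and Syvn1 without any of 7 (1 Hz replicate 4, 5, or 6, or 4 Hz replicate 2, 3, 4, or 5).

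**Figure D5:**
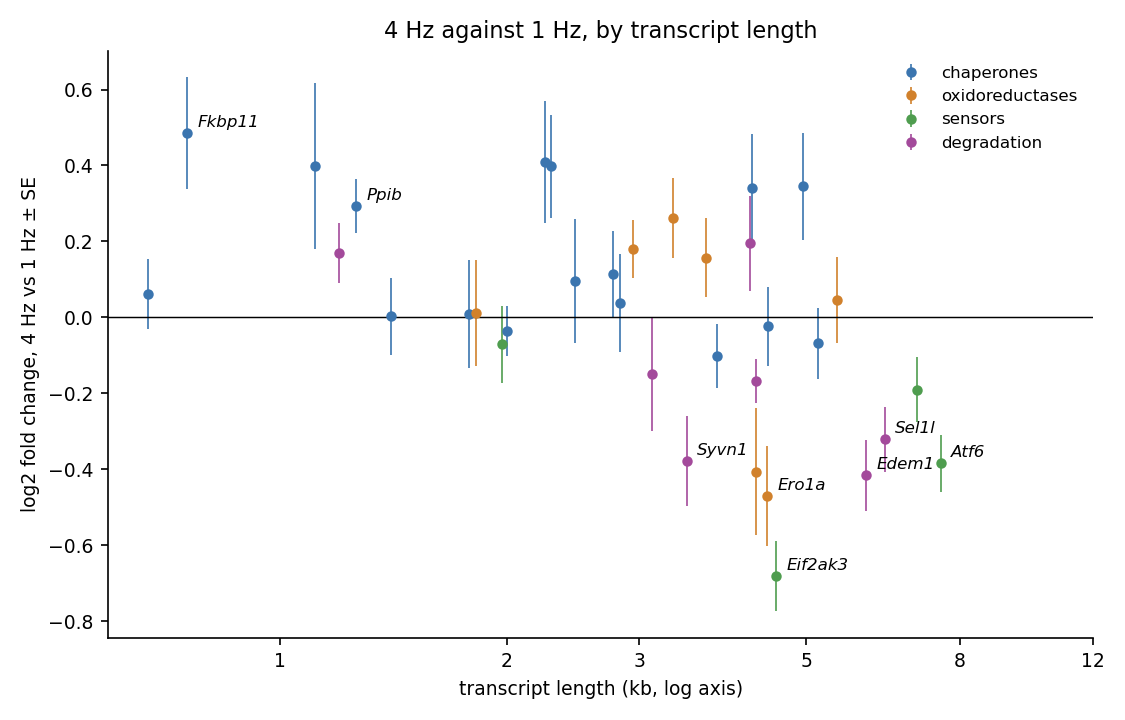
Log2 fold change between 4 Hz and 1 Hz with its standard error (y axis) against transcript length (x axis, logarithmic) for the 35 members tested, colored by class, with the 8 members past an adjusted p of 0.05 named. The 2 named genes above 0 have short transcripts and the 6 named below 0 have transcripts of 3467 to 7541 bases.

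The members with and without these promoter letters are set side by side as a description only, since the contrasts with control at 1 and 4 Hz chose the members. Of the 11 tested members with an ERSE or ERSE-II, 5 were called higher at 1 Hz and 5 at 4 Hz, and of the 18 matched members without one, 7 and 6 were. Their median log2 fold changes were 0.46 and 0.38 at 1 Hz and 0.39 and 0.30 at 4 Hz. Of the 11 with an element 11 were above control in the mean at 1 Hz and 10 at 4 Hz, and of the 18 without one 13 and 14 were. The difference between these sets was not tested. Hspa5, Calr, Hsp90b1, Pdia6, and Herpud1 held an element and were called at both frequencies, whereas Canx, Dnajc3, Creld2, Dnajb11, Syvn1, and Ero1b held one and were called at neither. Sdf2l1, Pdia4, Pdia3, and Pdia5 were called at both without one in the window searched.

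Among all RefSeq genes, 37 that are not members held an ERSE or ERSE-II, and 15 of them were tested. Of these, 1 was called higher at 1 Hz (Acacb, 0.68) and 1 lower (Lrif1, -0.60), and 4 were called higher at 4 Hz (Zfp57, Xlr3a, Acacb, and Calr4) and 0 lower. At 10 Hz 1 was called higher (Zfp57, 0.58) and 0 lower. Their median log2 fold changes were 0.20 at 1 Hz, 0.16 at 4 Hz, and 0.02 at 10 Hz. These genes were picked out after their values were known.

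Other genes of the same route were taken from lists drawn up with results of these data already known. Of 24 tested among 25 other folding genes of the compartment, 2 rose at 1 Hz and 0 fell. The 2 were Serpinh1, the collagen chaperone (0.55 ± 0.12), and Qsox1, a sulfhydryl oxidase (0.54 ± 0.10). At 4 Hz 1 rose (Serpinh1, 0.62 ± 0.12) and 1 fell (Cnpy4, -0.51 ± 0.13). Of all genes tested, 9.34% were called higher and 8.99% lower at 1 Hz, and 10.5% and 9.61% at 4 Hz. On log2(TPM + 1) limma called 0 of the 24 higher and 0 lower at 1 Hz, and 0 and 1 at 4 Hz. At 10 Hz edgeR, DESeq2, and limma on log2(TPM + 1) called 0 and 0, and an unadjusted p below 0.05 was met by 5 higher and 4 lower. Of 20 tested among 21 other degradation genes, edgeR and DESeq2 called 0 higher and 0 lower at each frequency (limma on log2(TPM + 1) called 2 lower at 4 Hz), and an unadjusted p below 0.05 was met by 5 higher and 4 lower at 1 Hz, 3 and 6 at 4 Hz, and 1 and 3 at 10 Hz. Their median log2 fold changes of 0.02 and -0.04 at 1 and 4 Hz lay near those of all genes.

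Neighboring steps of the secretory route were counted against the same shares of all genes (9.34% higher and 8.99% lower at 1 Hz, 10.5% and 9.61% at 4 Hz). Of 24 genes of the translocon, 1 rose at 1 Hz (Srpr, the receptor of the signal recognition particle, 0.79 ± 0.13) and 3 at 4 Hz, among them Srpr (0.77 ± 0.13) and Ssr4 (0.63 ± 0.10), and 0 fell. Of 21 genes of N-glycosylation, 3 rose and 1 fell at 1 Hz, and 0 rose and 2 fell at 4 Hz, with Stt3a, a subunit of the transferase, at 0.52 ± 0.10 at 1 Hz and the mannosyltransferases Alg1 and Alg2 at -0.72 ± 0.16 and -0.70 ± 0.08 at 4 Hz. Of 22 genes of export from the compartment, 2 rose at 1 Hz (the coat subunits Sec31a, 0.61 ± 0.08, and Sec24d, 0.52 ± 0.11) and 2 at 4 Hz (Sar1b, 0.61 ± 0.11, and Sec13, 0.56 ± 0.10), and 0 fell. Of 12 tested among 13 other transcription factors and regulators of the response, 2 rose at 1 Hz (Creb3l1, 1.01 ± 0.18, and Creb3l2, 0.55 ± 0.12) and 1 at 4 Hz (Creb3l1, 1.03 ± 0.18). These counts are from edgeR, and limma on log2(TPM + 1) differed. At 1 Hz it called 1 higher and 0 lower of the translocon, 1 and 2 of N-glycosylation, 1 and 0 of export, and 1 and 0 of the factors. At 4 Hz it called 1 and 0, 0 and 2, 0 and 3, and 1 and 2 in the same order. At 10 Hz edgeR and DESeq2 called 0 genes in each of these 4 lists (limma called 1 export gene lower), where an unadjusted p below 0.05 was met by 7 and 1 (higher and lower) of the translocon genes, 2 and 3 of N-glycosylation, 2 and 7 of export, and 0 and 1 of the factors.

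The integrated stress response, the arm in which Eif2ak3 and related kinases act through Atf4, was counted in the same way. Of its 23 genes tested, 15 rose and 0 fell at 1 Hz, 12 rose and 2 fell at 4 Hz, and 3 rose and 1 fell at 10 Hz (9.34% and 8.99%, 10.5% and 9.61%, and 1.24% and 0.623% of all genes), with median log2 fold changes of 0.58, 0.55, and 0.01. Slc7a11, the cystine importer, rose by 1.54 ± 0.23 at 1 Hz, 1.46 ± 0.23 at 4 Hz, and 0.96 ± 0.24 at 10 Hz (edgeR adjusted p = 2.9e-05, 3.0e-05, and 0.018). Phgdh, which opens serine synthesis, rose by 1.04 ± 0.15, 1.41 ± 0.15, and 0.53 ± 0.15 in the same order. Sesn2, a stress-induced regulator of growth signaling, and Bbc3, a cell death gene, were the 2 that fell at 4 Hz, at -0.51 ± 0.18 and -0.56 ± 0.19. On the TPM scale limma called 12 and 0 at 1 Hz, 5 and 1 at 4 Hz, and 0 and 0 at 10 Hz. Between 4 and 1 Hz, 1 gene of this list rose (Ddit4, 0.95 ± 0.16) and 2 fell (Sesn2, -0.61 ± 0.18, and Ppp1r15a, -0.50 ± 0.10).

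Collagens and other matrix proteins are among the main cargo of these chaperones in a culture like this one. Of 20 such genes, 10 rose and 0 fell at 1 Hz, 5 rose and 0 fell at 4 Hz, and 0 rose and 1 fell at 10 Hz. Of all genes tested, 9.34% were called higher and 8.99% lower at 1 Hz, and 10.5% and 9.61% at 4 Hz. At 10 Hz the shares were 1.24% and 0.623%. On log2(TPM + 1) limma called 7 higher and 0 lower at 1 Hz, 3 and 1 at 4 Hz, and 0 and 1 at 10 Hz. Col6a2 and Col6a1 rose most, by 1.82 ± 0.27 and 1.78 ± 0.27 at 1 Hz and 1.48 ± 0.27 and 1.46 ± 0.27 at 4 Hz, and Col6a3 fell at 10 Hz by 0.62 ± 0.15.

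Chaperones of the cytosol were counted beside those of the endoplasmic reticulum. Of 15 tested, 0 rose and 5 fell at 1 Hz, and 0 rose and 6 fell at 4 Hz, where 8.99% and 9.61% of all genes fell, and at an unadjusted p below 0.05, 1 and 3 were higher. Their median log2 fold changes were -0.34 and -0.14, and 2 and 5 of the 15 were above control in the mean. At 10 Hz edgeR, DESeq2, and limma called 0 and 0, with 1 higher and 0 lower at an unadjusted p below 0.05. Hspa1a and Hspa1b, near-identical Hsp70 genes that can share reads, stood at -2.46 ± 0.52 and -1.52 ± 0.32 at 1 Hz and -2.52 ± 0.51 and -1.76 ± 0.32 at 4 Hz (edgeR adjusted p = 7.0e-04, 6.9e-04, 3.8e-04, and 1.3e-04). Of 11 mitochondrial chaperones edgeR and DESeq2 called 0 higher and 0 lower at each of the 3 frequencies (limma called 1 lower at 4 Hz), and an unadjusted p below 0.05 was met by 3 higher and 2 lower at 1 Hz, 2 and 4 at 4 Hz, and 2 and 4 at 10 Hz.

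Markers of other cells and states were counted in the same edgeR fit, in which 9.34% of all genes were called higher and 8.99% lower at 1 Hz and 10.5% and 9.61% at 4 Hz. The 4 genes of reserve myoblasts summed to 47.7 to 94.2 CPM in control and 56.8 to 85.3 CPM at 1 and 4 Hz, with 1 higher and 0 lower at 1 Hz, 1 and 1 at 4 Hz, and 0 and 0 at 10 Hz. The 4 genes of cycling cells summed to 23.9 to 30.3 CPM in control and 19.8 to 40.2 CPM at 4 Hz, with 0 and 0, 2 and 0, and 0 and 0. They were of low level, with medians over all libraries of 1.17 CPM for Mki67 and 4.38 CPM for Ccnb1. At 4 Hz limma on log2(TPM + 1) called 0 higher and 1 lower of the cycling genes, and likewise 0 and 1 of the reserve myoblast genes. The 2 fibroblast markers and the 2 macrophage markers with enough counts included Dcn, at 21.1 to 59.2 CPM, and Cd68, at 67.8 to 112.5 CPM, and in each pair 1 fell at 4 Hz and 0 were called at 1 and 10 Hz. None of the 3 endothelial or 3 adipocyte markers had enough counts to be tested.

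The spread between libraries of 1 condition differed among members. The median coefficient of variation of the 35 was 9.89% in control, 16.2% at 1 Hz, 13.0% at 4 Hz, and 11.2% at 10 Hz. Sdf2l1 varied most, at 43.1% at 1 Hz and 32.7% at 4 Hz, and Manf followed at 1 Hz with 30.5%. Derl1 was among the steadiest, with 261 to 279 CPM over the 6 libraries at 1 Hz.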

How the data were processed

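RNA of 24 ChR2::tdTomato C2C12 tissues was sequenced, 6 per condition. Titles gave each sample its group and number. Directional libraries, of poly(A) RNA or, for low-input samples that the labels do not name, of ribodepleted RNA, were quantified by the authors with salmon in nf-core/rnaseq on GRCm39. Annotation release and strand setting are not given in the sources used here. Estimated counts, as deposited, are not normalized, and the deposited TPM were scaled by the authors to a fixed sum per library.

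Counts were rounded and filtered with filterByExpr, leaving 13318 of 56941 genes and 99.8% of counts. TMM scaling and the quasi-likelihood test of edgeR 4.0.16 (R 4.3.3) were applied to the 24 libraries together, by condition. CPM use TMM-scaled library sizes. P-values were adjusted by Benjamini-Hochberg across every gene tested, and the fold threshold of 0.5 (log2) is that of the study. Alternatives were DESeq2 1.42.0, limma 3.58.1 on TPM, other scalings, no filter, a replicate block, and the small RNA share as covariate. Others were length and GC corrections chosen after seeing the data, and each library left out. Limma was run on log2(TPM + 1) with and without a minimum mean of 1 TPM, and on log2(TPM + 0.1) with that minimum only. The scripts were tested on simulated data. Totals of 4.09 to 15.2 M per library set the counting error, and limits for a count of 0 cover that error only. No pair of libraries of a condition agreed within sampling noise (60 pairs, chi-square per gene of 3.16 or more).

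Members and gene lists were chosen with earlier results of these data known. The lowest, median, and highest CPM are given for the 25 members with a mean of at least 50 CPM and for members called in 10 Hz vs control or 4 Hz vs 1 Hz, and others by range. From each other list at most the 2 largest rises and 2 largest falls per comparison are named. Transcript lengths and GRCm39 positions come from GENCODE, and promoters from RefSeq.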

Additional observations from a re-analysis of the deposited data

Results flagged for a closer look

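In 140 groups of 6 libraries (35 members in 4 conditions), 1 library stood apart from the other 5 by Dixon's test at the 95% level in 4 cases, and chance alone would give about 1 in 20. Hyou1 was highest in control replicate 2, at 147.7 CPM against 136.4 CPM in the next library. Fkbp11 was highest in 4 Hz replicate 6, at 15.4 CPM against 12.8 CPM. Fkbp14 was lowest in control replicate 4, at 19.0 CPM against 23.0 CPM, and Derl2 was lowest in 10 Hz replicate 4, at 45.7 CPM against 58.8 CPM. The 4 cases fell in 4 different libraries.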

How the results depend on the processing

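The counts of members called were recomputed under 13 alternatives and with each of the 24 libraries left out. With the small RNA share as a covariate, 0 members were called higher at 1 Hz and 4 at 4 Hz (each against control), 10 Hz against 1 Hz had 0 higher and 3 lower, and 10 Hz against 4 Hz had 0 lower. In the same fit the log2 fold change of Atf6 at 4 Hz against control turned to -0.0015. Dropping the fold threshold gave 25 higher and 2 lower at 1 Hz, 22 and 1 at 4 Hz, and 1 lower at 10 Hz (all against control), 2 and 6 for 4 Hz against 1 Hz, 4 and 26 for 10 Hz against 1 Hz, and 1 and 19 for 10 Hz against 4 Hz. The GC correction, chosen after seeing the data, gave 1 higher and 2 lower for 4 Hz against 1 Hz and 0 higher for 10 Hz against 1 Hz. All 3 limma fits on TPM gave 0 higher for 10 Hz against 1 Hz, and the fit on log2(TPM + 0.1) gave 2 lower for 4 Hz against 1 Hz. Total count scaling gave 1 lower at 4 Hz (against control) and 2 higher for 10 Hz against 1 Hz. The cause of these shifts was not tested, apart from the dropped threshold. With 1 library left out, members higher ranged over 13 to 18 at 1 Hz and 13 to 14 at 4 Hz (against control), 0 to 1 for 4 Hz against 1 Hz, and 0 to 2 for 10 Hz against 1 Hz, and members lower over 0 to 1 at 4 Hz (against control), 1 to 2 for 4 Hz against 1 Hz, and 15 to 18 for 10 Hz against 1 Hz. The other counts did not move, at 12 lower for 10 Hz against 4 Hz and 0 in the rest. DESeq2 called 15 members higher at 1 Hz and 14 at 4 Hz, and limma on log2(TPM + 1) 15 and 11. Libraries of different conditions with the same replicate number had 36 correlations of -0.18 to 0.36, and 10 of these were above 0.1. Of the 24 libraries, 10 were closest to 1 of their own number. Whether the numbers mark a shared plate or batch is not given in the labels and was not tested. The replicate block gave 16 members higher at 1 Hz and 14 at 4 Hz and changed none of the 12 counts. Fkbp11, Ero1b, and Pdia5, near 10 CPM, are limited most by depth.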
